A study of Homo sapiens with 45 samples.

Results

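The genes described here are 10 members of the ETS family of transcription factors, namely FLI1, ERG, FEV, ETV1, ETV4, ETV5, ETV6, ETS1, ETS2 and GABPA. They were taken as a fixed list that holds the fusion partners known from Ewing sarcoma and their close relatives, out of 28 ETS family genes and 41582 genes in all. Poly(A) RNA was sequenced from 45 libraries of human cell lines. The Ewing sarcoma lines, from a bone and soft tissue tumour driven by a fusion gene, were TC71, SKES1, EW3, A673, RDES, EW24 and MHHES1. The osteosarcoma lines, from a bone-forming tumour, were U2OS, KHOS, SAOS2, MG63, G292 and HOS-MNNG, with 3 untreated libraries for each of the 13 lines. The remaining 6 libraries came from A673 cells with sh908, 3 without and 3 with doxycycline, a drug used to switch on an inducible construct. The labels name neither the target of sh908 nor the number of clones, and they do not state which fusion each Ewing line carries. HOS-MNNG and KHOS are both derivatives of the HOS line, so their values share a source. Nothing in the labels says that the libraries of a line came from separate cultures, so the spread between them may be technical.

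ETS factors share a winged-helix DNA-binding domain that reads a GGAA core. In Ewing sarcoma a chromosome translocation joins the 5′ part of EWSR1, in most tumours, to the 3′ part of an ETS gene, most often FLI1, less often ERG and rarely FEV, ETV1 or ETV4, and the fusion protein keeps the ETS domain. FLI1, ERG and FEV form the ERG subfamily, ETV1, ETV4 and ETV5 form the PEA3 subfamily, whose genes are transcribed in response to ERK signalling, and ETV6 is a repressor. ETS1 and ETS2 are activators phosphorylated by ERK, and GABPA is the DNA-binding subunit of GABP, a factor of widely expressed genes. The deposited tables list reference transcripts, so reads from a fusion transcript and from the unrearranged gene are counted under the same name and cannot be told apart in these values.

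The sequences given here include exon junctions that differ between the leading transcripts of FLI1 and ERG and show how these transcripts part. The tables hold estimates for whole transcripts, which also differ in their first exons, and no reads counted at a junction. FLI1 (gene ID 2313, chr11:128685132-128813267 in GRCh38.p14) lies 97.6 kb from ETS1 (gene ID 2113, chr11:128458765-128587558), and 5 of its transcripts were in the tables. NM_002017.5 has 9 exons in the annotation of GENCODE version 29 (ENST00000527786, an earlier version of the same record, GRCh38). NM_001271012.2 (ENST00000344954) has 7 exons and skips the exons of 155 and 204 bases. Both contain the exon of 66 bases at chr11:128781958-128782023, plus strand, and 5 of their exons are identical in position. The junctions below show the last 10 bases of the exon before it in lower case and its first 30 bases in capitals, all 5′ to 3′.
NM_001271012.2, exon 2 to exon 3: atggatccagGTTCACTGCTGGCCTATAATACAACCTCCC
NM_002017.5, exon 4 to exon 5: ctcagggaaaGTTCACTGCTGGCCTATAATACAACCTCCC
In the annotation of NM_001271012.2 the start codon, at chr11:128758317-128758319, is the atg that opens the lower-case bases, whereas NM_002017.5 starts in its exon 1. The exons present in NM_002017.5 and absent from NM_001271012.2 are in capitals here, each between 10 bases of the neighbouring exons. They lie at chr11:128768118-128768272 and chr11:128772782-128772985.
NM_002017.5, exon 3: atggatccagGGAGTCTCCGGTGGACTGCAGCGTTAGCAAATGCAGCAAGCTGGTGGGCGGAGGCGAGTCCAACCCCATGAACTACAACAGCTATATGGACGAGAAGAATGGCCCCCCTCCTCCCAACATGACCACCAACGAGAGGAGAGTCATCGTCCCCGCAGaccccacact
NM_002017.5, exon 4: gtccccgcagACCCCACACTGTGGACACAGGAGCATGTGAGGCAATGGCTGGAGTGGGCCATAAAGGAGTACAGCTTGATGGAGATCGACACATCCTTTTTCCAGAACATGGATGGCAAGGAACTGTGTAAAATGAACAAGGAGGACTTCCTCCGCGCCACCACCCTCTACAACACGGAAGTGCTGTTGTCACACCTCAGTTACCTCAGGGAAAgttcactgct
ERG (gene ID 2078, chr21:38367261-38661783) lies 143.4 kb from ETS2 (gene ID 2114, chr21:38805183-38824955) and had 10 transcripts in the tables. NM_001243428.1 (ENST00000398919) has 12 exons and NM_001243429.1 (ENST00000398897) has 9, with 7 exons identical in position. The shorter transcript starts at base 38584900 and the longer at base 38660667, and the shorter lacks the exons of 218 and 72 bases. The junctions lead into the shared exon of 69 bases at chr21:38392376-38392444, minus strand, with the same use of capitals.
NM_001243429.1, exon 5 to exon 6: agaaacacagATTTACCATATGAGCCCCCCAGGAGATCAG
NM_001243428.1, exon 8 to exon 9: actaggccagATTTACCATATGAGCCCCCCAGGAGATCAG
The exon of 72 bases, at chr21:38400574-38400645, is in capitals in the next sequence.
NM_001243428.1, exon 8: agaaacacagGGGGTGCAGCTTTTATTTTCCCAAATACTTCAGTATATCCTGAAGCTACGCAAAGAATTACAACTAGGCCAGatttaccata

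The libraries held between 15974173 and 51413254 estimated counts. Levels are given as TPM, the unit in which the transcripts of a library sum to a fixed total, which is scaled for transcript length and depth and can be compared between genes. The 8 Ewing markers summed to 1525 to 3277 TPM in the Ewing lines and to 144 to 970 TPM in the osteosarcoma lines. Of 15 endothelial and blood markers, between 1 and 5 reached 1 TPM in any of the 13 lines. By marker, the highest line means were LMO2 at 57.45 TPM in EW3, GATA2 at 56.56 TPM in RDES and TIE1 at 33.91 TPM in KHOS. EMCN at 20.44 TPM in A673 and ESAM at 19.86 TPM in KHOS came next. One TC71 library, replicate 3, stood apart: its GC-rich genes were shifted against its GC-poor genes by 0.95 on the log2(TPM + 1) scale relative to the other TC71 libraries. The same shift against parental A673 was 0.58 to 0.80 in replicates 1 and 2 of the sh908 cells and 0.13 to 0.15 in replicate 3.

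FLI1 RNA was at 25.6 TPM or more in every library of 6 of the 7 Ewing lines, and EW3 was the exception. The 3 libraries read 46.5, 41 and 40.96 TPM in A673, 44.1, 43.4 and 46.3 TPM in MHHES1, and 39.2, 37.8 and 25.6 TPM in TC71, where the lowest is the GC-shifted replicate 3. EW24 had 36.3, 36.5 and 28.3 TPM, RDES 33.2, 35.2 and 27.3 TPM, and SKES1 28.6, 27.5 and 29.96 TPM. EW3, by contrast, had 3.18, 1.51 and 1.56 TPM. Among the osteosarcoma lines, KHOS had 27.1, 27.6 and 28.3 TPM and HOS-MNNG 19.6, 19.03 and 21.99 TPM, so KHOS overlapped SKES1. G292 stood at 2.13 ± 0.19 TPM and MG63 at 1.82 ± 0.10 TPM (SD, n = 3 each), while SAOS2 was at 0.777, 0.614 and 0 TPM and U2OS had 3 counts in its 3 libraries together. In the order of line means, from MHHES1 at 44.6 to U2OS at 0.0200 TPM, 8 of 12 neighbouring pairs had overlapping libraries. SENCR, a long non-coding RNA on the opposite strand over FLI1 exons, was at 0 to 8.71 TPM by line mean and was highest in KHOS, and since no source states whether the quantification used strand, reads of the 2 genes may be shared there.

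The lines separated by the FLI1 transcript to which the deposited estimates gave the reads. NM_001271012.2 is the shortest of the 5, at 3428 bases, and lacks the exons of 155 and 204 bases. Reads from the 3′ exons that it shares with NM_002017.5 fit both, so RNA with only these exons, as in a fusion, can be counted under it. The shares thus do not show which transcript was present. In TC71 NM_001271012.2 held 100% of the FLI1 TPM in each library, and in EW24 100%, 100% and 99.1%. In A673 it held 98.8%, 98.4% and 98.7%, in SKES1 91.5%, 97.7% and 93.0%, and in MHHES1 95.3%, 92.7% and 89.1%. RDES was lower and more spread at 85.3%, 78.9% and 39.5%. There NM_002017.5 held 14.2%, 12.01% and 24.2%, and the model transcript XM_047426630.1 held 36.3% in replicate 3. In the 4 osteosarcoma lines with at least 30 FLI1 counts in each library NM_002017.5 held most of it, with 98.0% ± 1.3 in HOS-MNNG and 98.0% ± 1.2 in KHOS (SD, n = 3 each), at least 99.99% in G292, and 64.7%, 99.7% and 100% in MG63. The short transcript was at 0% in every library of G292, where 3 of 474 counts would be 0.633%, and of MG63, where 3 of 221 counts would be 1.36%; these limits cover counting error only. EW3 resembled the osteosarcoma lines, with 2.5%, 0% and 0% on NM_001271012.2, and NM_002017.5 held 97.5%, 50.7% and 100% of its few FLI1 counts (77 to 248 in a library). In bulk libraries, a low level in all cells and a high level in few cells cannot be told apart.

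Over lines with at least 30 FLI1 counts in each library, the mean share of NM_001271012.2 was 79.1% ± 36.3 (SD, n = 7) in the Ewing lines and 0.052% ± 0.064 (SD, n = 4) in the osteosarcoma lines. The difference of 79.0 percentage points had p = 0.006061 in a 2-sided exact permutation test, which is the smallest p that 330 splits allow. The transcript was chosen from these same data, as the one with the highest mean over the 13 lines, at 15.43 TPM. In the osteosarcoma lines it was at most 0.029 TPM by line mean, so the choice rested on the Ewing lines. The p is not independent of that choice and is given as a description. The lowest Ewing line, EW3, lay at 0.84% and the highest osteosarcoma line at 0.132%. The EW3 value came from 1 library with 5.59 estimated counts on the transcript. Without it EW3 was at 0%, the groups overlapped, and p was 0.0303. HOS-MNNG and KHOS, of one origin, entered as separate lines, and with their mean as 1 value p was 0.01667, the smallest that 120 splits allow (2-sided exact permutation tests, both alternatives chosen after seeing the data). SAOS2 and U2OS had too few counts to enter.

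**Figure D1:**
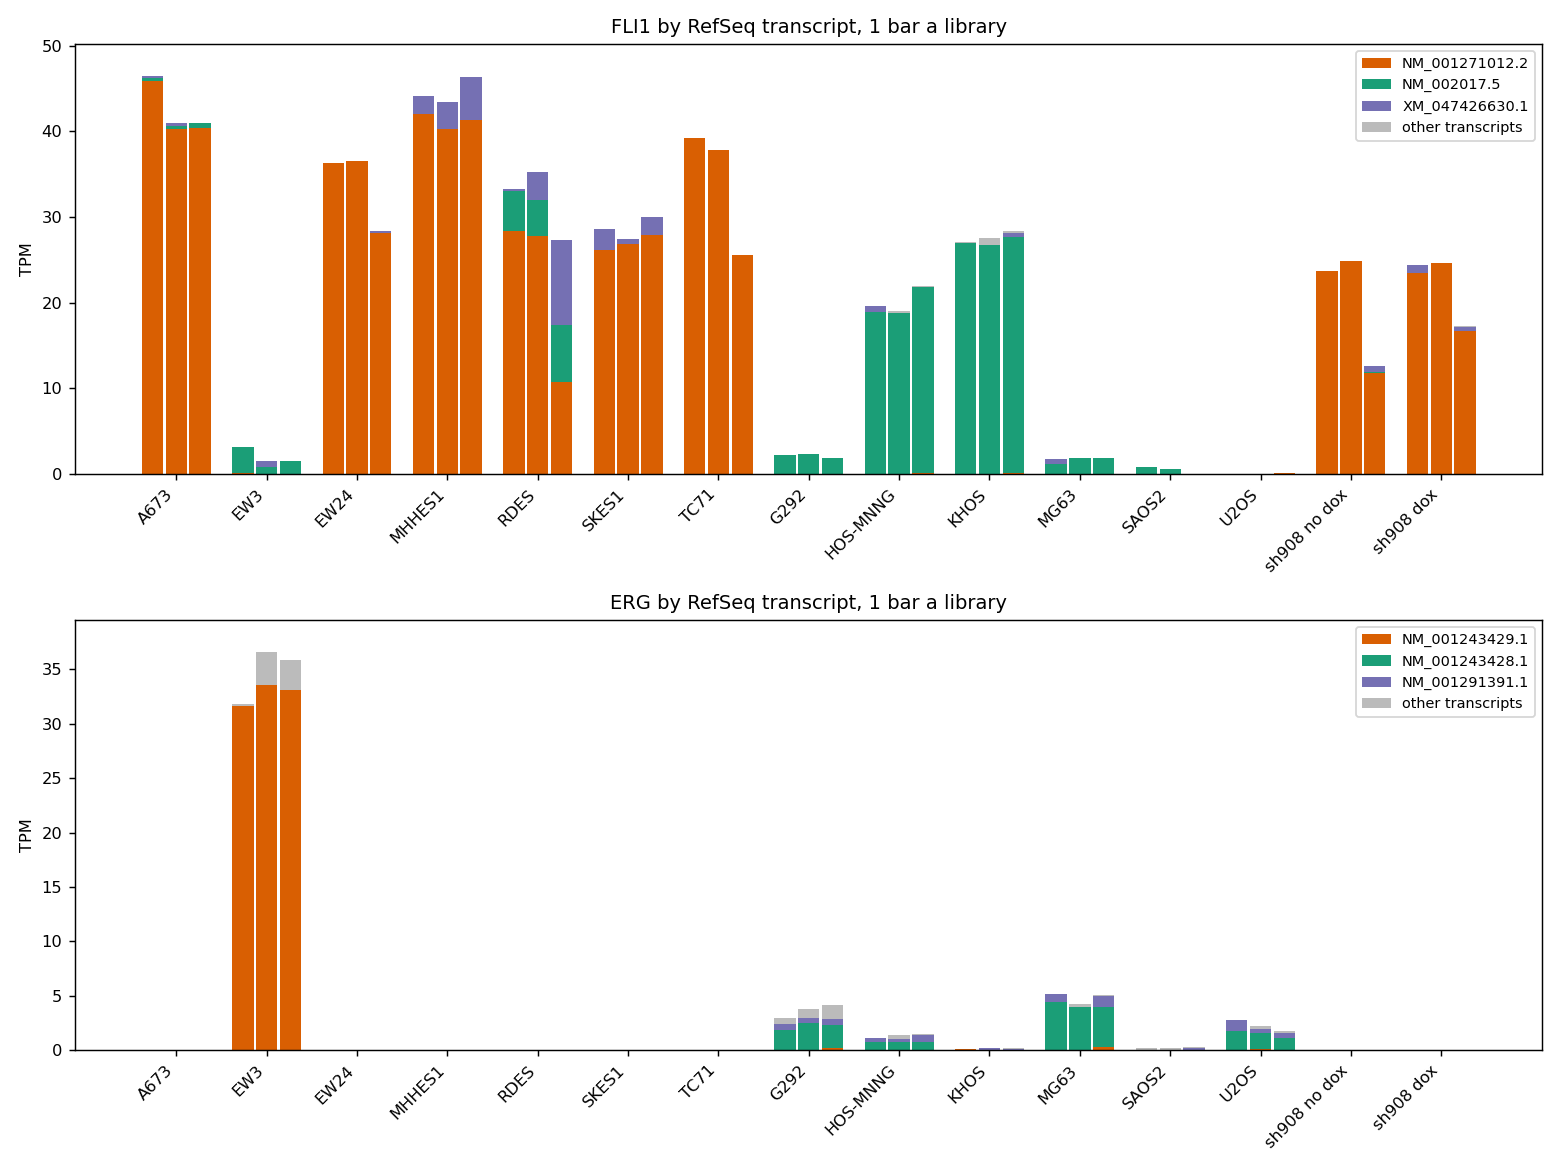
Stacked bars give the TPM of FLI1 (top) and ERG (bottom) by RefSeq transcript, with 1 bar for each of the 45 libraries grouped by line. In the FLI1 panel NM_001271012.2 fills most of each bar in 6 Ewing lines and the sh908 cells, except RDES replicate 3 at 39.5%, and NM_002017.5 fills most of each bar in the osteosarcoma lines other than U2OS, which had 3 counts, and in the ERG panel EW3 is filled by NM_001243429.1 at 31.8 to 36.6 TPM in all.

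ERG showed the reverse distribution among the Ewing lines. EW3 had 31.8, 36.6 and 35.9 TPM, which rested on 2327 to 3075 counts a library. The other 6 Ewing lines had at most 2 counts over their 3 libraries, and EW24, RDES and SKES1 had none. All 6 osteosarcoma lines had ERG counts, at 4.84 ± 0.48 TPM in MG63, 3.64 ± 0.58 in G292, 2.26 ± 0.53 in U2OS, 1.31 ± 0.19 in HOS-MNNG, 0.232 ± 0.072 in SAOS2 and 0.154 ± 0.031 in KHOS (SD, n = 3 each). In the order of line means EW3, MG63, G292, U2OS and HOS-MNNG did not overlap in any library with the line next below. The sum of FLI1 and ERG was 28.7 to 44.6 TPM over the 7 Ewing lines, EW3 included at 36.9 TPM.

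The estimates for the ERG transcripts differed too, with the same limit for reads from shared 3′ exons. NM_001243429.1 held 99.4%, 91.6% and 92.4% of ERG TPM in EW3, where NM_001243428.1 was at 0% in each library and NM_001136155.1 held 5.22% on average. In the 4 osteosarcoma lines with at least 30 counts a library NM_001243428.1 led with 83.1% ± 10.1 in MG63, 64.4% ± 2.7 in U2OS, 59.7% ± 8.0 in G292 and 58.7% ± 11.3 in HOS-MNNG (SD, n = 3 each). NM_001243429.1 did not pass 6.62% in any of their libraries. With EW3 the only Ewing line in this set, the difference between tumour types was not tested.

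FEV (gene ID 54738, chr2:218981087-218985184), a factor of serotonin neurons in normal tissue, was high in TC71 alone among the parental lines. The TC71 libraries had 29.1, 31.4 and 98.6 TPM, and the highest library of any other line was the 2.56 TPM of MHHES1. A673 had 1.97, 2.14 and 1.56 TPM, KHOS 1.27 ± 0.24 TPM (SD, n = 3), and G292, MG63 and SAOS2 were at 0. The library with 98.6 TPM is the GC-shifted TC71 replicate 3. The transcript model of FEV used here has 68.1% GC, above 99.1% of the genes compared, and the part of this shift in the FEV value was not tested. Without that library FEV in TC71 was still above every other line.

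**Figure D2:**
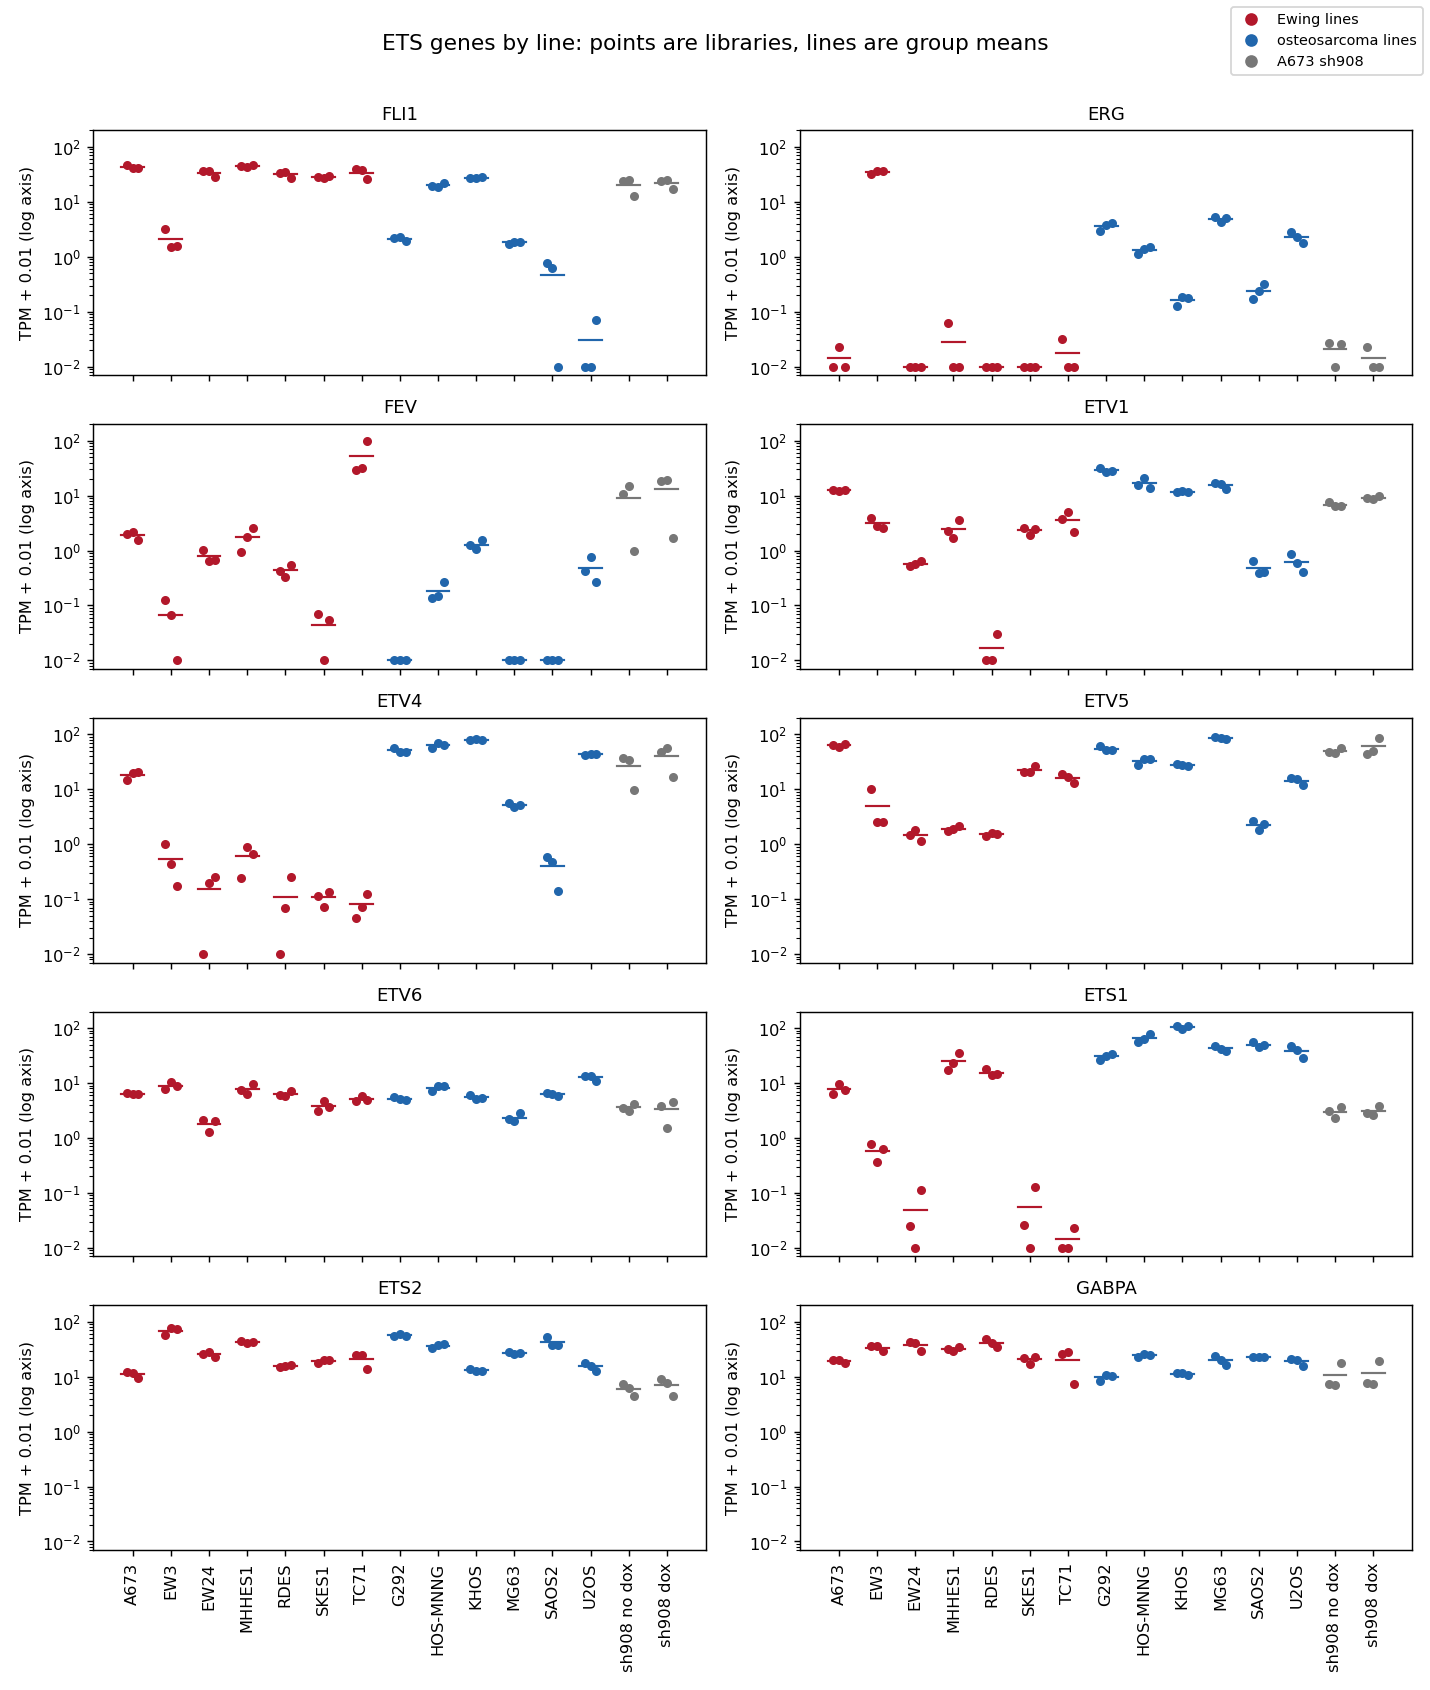
Each panel shows 1 gene, with libraries as points and the mean of a line as a bar, on a logarithmic axis of TPM + 0.01, for 7 Ewing lines (red), 6 osteosarcoma lines (blue) and the A673 sh908 groups (grey). ERG is at 31.8 to 36.6 TPM in EW3, FEV at 29.1 to 98.6 TPM in TC71, and ETS1 is at 26.4 TPM or more in every osteosarcoma library.

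Of the PEA3 subfamily, ETV4 (gene ID 2118, chr17:43527846-43546340) was near 0 in 6 Ewing lines and high in A673. The A673 libraries had 14.9, 20.2 and 20.7 TPM, and no library of another Ewing line passed the 0.998 TPM of EW3. KHOS had 78.6, 81.2 and 77.9 TPM, HOS-MNNG 55.7, 71.1 and 63.2 TPM, G292 56.5, 47.6 and 48.6 TPM, and U2OS 42.2, 44.4 and 43.4 TPM. MG63 was lower at 5.25 ± 0.43 TPM and SAOS2 was at 0.393 ± 0.235 TPM (SD, n = 3 each), within the range of the Ewing lines other than A673. The values thus spanned from 0.0712 TPM in TC71 to 79.2 TPM in KHOS by line mean.

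ETV5 (gene ID 2119, chr3:186046314-186109089) and ETV1 (gene ID 2115, chr7:13891229-13991425) were also highest in A673 among the Ewing lines. ETV5 had 62.9, 58.6 and 67.4 TPM there, 22.5 ± 3.4 TPM in SKES1 and 16.1 ± 2.8 TPM in TC71 (SD, n = 3 each), and 1.46 to 5.01 TPM by line mean in the other 4. In the osteosarcoma lines it ran from 2.27 TPM in SAOS2 to 85.8 TPM in MG63, with a median of 30.1 TPM. ETV1 had 12.7, 12.2 and 12.7 TPM in A673 and at most 3.62 TPM by line mean elsewhere in the Ewing group, with RDES at 0.00661 TPM. G292, HOS-MNNG, MG63 and KHOS had 28.8, 16.7, 15.5 and 11.8 TPM, while U2OS and SAOS2 had 0.602 and 0.468 TPM. SAOS2 was low and A673 high for all 3 genes within their tumour type. Across the 13 lines ETV1 and ETV5 had r = 0.847 (Pearson, log2(TPM + 1) of line means), the highest of the 45 pairs of members, given as a description, since the lines share libraries and depth between genes.

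ETS1 stood lower by line mean in each Ewing line than in each osteosarcoma line, a difference that was not called in the test. The osteosarcoma lines ran from 26.4, 31.5 and 33.8 TPM in G292 to 109.3, 97.2 and 109.0 TPM in KHOS. MHHES1 had 17.2, 23.4 and 34.9 TPM, RDES 17.8, 13.8 and 14.5 TPM, and A673 6.32, 9.73 and 7.53 TPM. EW3 stood at 0.578 ± 0.206 TPM (SD, n = 3), and EW24, SKES1 and TC71 were each below 0.13 TPM in every library. By line mean the highest Ewing line, MHHES1 at 25.2 TPM, was below the lowest osteosarcoma line, G292 at 30.6 TPM, although single libraries of these 2 lines overlapped. The Ewing lines thus held both the lowest values and a wide range, with an SD of 2.08 on the log2(TPM + 1) scale, larger than that of 98.7% of genes expressed at 1 TPM or more.

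ETS2, ETV6 and GABPA were found in every library of every line. ETS2 ranged from 11.1 TPM in A673 to 68.8 TPM in EW3, and in the osteosarcoma lines from 13 TPM in KHOS to 56.4 TPM in G292. The EW3 libraries had 57.8, 76.0 and 72.7 TPM, and their lowest overlapped the highest of G292. ETV6 (gene ID 2120, chr12:11649674-11895377) ran from 1.80 TPM in EW24 to 12.6 TPM in U2OS, and 9 of its 12 neighbouring pairs of lines overlapped. GABPA (gene ID 2551, chr21:25734972-25772460) had the narrowest span of these by ratio, from 9.70 TPM in G292 to 41.3 TPM in RDES. Its TC71 libraries had 25.9, 27.6 and 7.45 TPM, and the low one is again replicate 3. The exons of GABPA are overlapped on the other strand by ATP5PF, at 184.7 to 753.3 TPM by line mean, and those of ETV4 by DHX8, at 14.5 to 41.99 TPM, with the same limit. GABPA has 36.4% GC, below all but 3.9% of genes compared, and the part of the GC shift in this value was not tested.

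None of the 10 genes was called between the 7 Ewing and 6 osteosarcoma lines, against 14.4% of 22000 genes tested (edgeR quasi-likelihood test on counts summed by line, Benjamini-Hochberg adjusted p under 0.05). At an unadjusted p under 0.05 there were 4 of the 10 (ETS1, ETV4, FEV and GABPA), beside 29.6% of all genes. DESeq2 called ERG, ETS1 and ETV4, all lower in the Ewing lines, of the 9 to which it gave an adjusted p, beside 24.5% of all genes called and 13.9% called lower. Its default handling of outlying counts was kept. The part of this in the calls of ERG, high in EW3, and ETV4, high in A673, was not tested. A fit that took the libraries as replicates of fixed line means, and so spoke only of these 13 lines, called all 10 members beside 70.4% of genes. In counts the median log2 fold change of the 10 was -0.33, beside -0.06 over all genes.

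Sizes and errors differed between the members, and ERG, FEV, ETV4 and ETS1 had the largest errors. ETV4 had a log2 fold change of -3.88 (SE 1.56, adjusted p = 0.115), and without A673 the change was -7.69 (SE 1.23, adjusted p = 0.00219). ETS1 had -3.31 (SE 1.39, adjusted p = 0.129). It was 1 of the 10 genes whose line means did not overlap between the tumour types in TPM, beside 5.58% of all genes in either direction and 2.39% that were lower in the Ewing lines. FLI1 had 1.38 (SE 1.14, adjusted p = 0.453). FEV had 4.66 (SE 2.02, adjusted p = 0.141), and without TC71 1.11 (SE 1.30, adjusted p = 0.627). The sign of ERG differed between fits. With edgeR it had 1.1 (SE 2.12, adjusted p = 0.773) with EW3 and -9.07 (SE 1.32, adjusted p = 0.00154) without it. DESeq2 at its default settings gave -4.21 (adjusted p = 0.0229). Whether its default handling of outlying counts replaced the ERG count of EW3 was not tested. GABPA had 0.54 (SE 0.24, adjusted p = 0.143), and ETV1, ETV5, ETV6 and ETS2 had -1.88, -1.19, -0.34 and -0.31 with adjusted p of 0.297 or more. No other gene of the 10 was called by edgeR when any single line was left out.

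**Figure D3:**
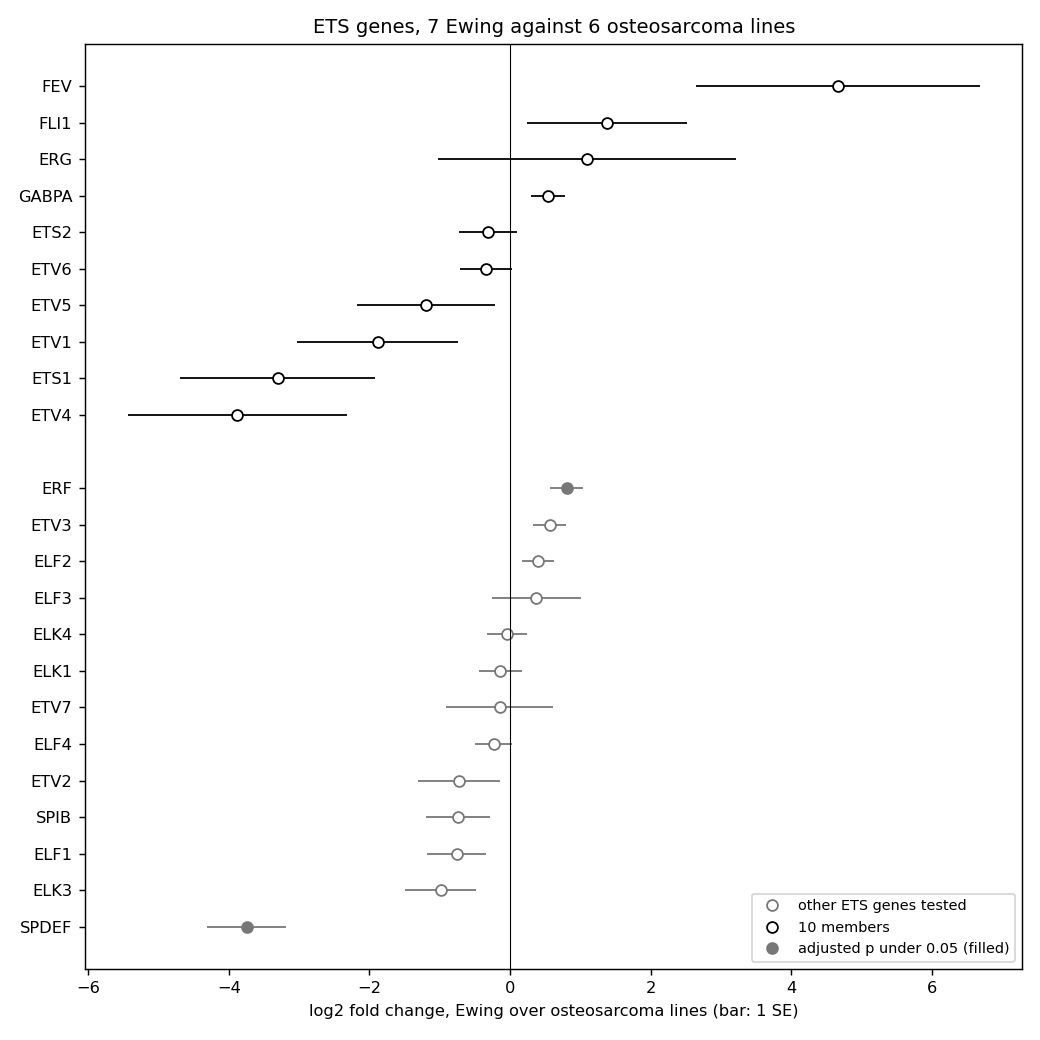
Points give the log2 fold change of counts in 7 Ewing over 6 osteosarcoma lines with bars of 1 SE, for the 10 members (black) and 13 other ETS genes that could be tested (grey), filled where the adjusted p was under 0.05. Only ERF at 0.81 and SPDEF at -3.75 are filled, and the longest bars belong to ERG, FEV, ETV4 and ETS1.

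Of the 18 other ETS family genes 13 could be tested, 1 rose and 1 fell, a share near that over all genes (14.4% called, 5.96% higher and 8.4% lower). ERF, a repressor that ERK exports from the nucleus, was higher in the Ewing lines (log2 fold change 0.81, SE 0.24, adjusted p = 0.0376). SPDEF, an epithelial factor, was lower (-3.75, SE 0.56, adjusted p = 0.00109), but its RNA was low in both tumour types. By line mean it ran from 0.01105 TPM in TC71 to 0.07815 TPM in A673 among the Ewing lines. Among the osteosarcoma lines it ran from 0.1196 TPM in G292 to 1.076 TPM in U2OS. EWSR1, the RNA-binding protein gene that gives the 5′ part of the fusions, was at 210 to 319 TPM in the Ewing and 238 to 331 TPM in the osteosarcoma lines by line mean. It was not called, with a log2 fold change of -0.17 (adjusted p = 0.577).

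Of 9 partners and regulators of ETS factors 1 fell, beside 8.4% of all genes called lower. RUNX1, which binds DNA together with ETS1, was lower in the Ewing lines by a log2 fold change of -9.94 (SE 0.68, adjusted p = 1.04e-05). The GABPA partners GABPB1 and GABPB2 had 0.09 and 0.75, and CIC, the repressor of the PEA3 genes, had -0.16, with adjusted p of 0.231 or more. Among 16 genes whose transcription follows ERK signalling, 6 were lower and 1 was higher in the Ewing lines, beside 8.4% of all genes lower and 5.96% higher. They had a median log2 fold change of -3.11 beside -0.06 for all genes. PHLDA1 had -5.94 (SE 1.04), FOSL1, a subunit of AP-1, -5.73 (SE 1.11), EGR1 -3.88 (SE 0.76), the ERK pathway inhibitor SPRY2 -3.75 (SE 0.74), IER3 -3.36 (SE 0.62) and SPRED1 -2.35 (SE 0.58), with adjusted p of 0.0176 or less. DESeq2 called 12 of the 16 lower and 2 higher, beside 13.9% and 10.7% of all genes. The ephrin receptor EPHA4 rose by 2.81 (SE 0.82, adjusted p = 0.0369). SPRY4 had -3.37 with adjusted p = 0.142, and DUSP6, the ERK phosphatase, -0.64 with adjusted p = 0.764.

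Added over the family, ETS RNA differed less between lines than its makeup. The 28 genes summed to 306 TPM in SKES1 and to 499 TPM in G292, the extremes of the 13 lines. The 10 members gave 27.3% of that sum in EW24 and 63.2% in KHOS. ERF was the highest family gene in all 7 Ewing lines, at 77.9 to 114.6 TPM. In the osteosarcoma lines the highest was ETS1 in HOS-MNNG and KHOS, ETV5 in MG63, ELK3 in G292, ELK1 in SAOS2 and ERF in U2OS. FLI1 was the family gene next below ERF in MHHES1 and SKES1. These rankings are descriptions of line means, and no test was made of them.

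**Figure D4:**
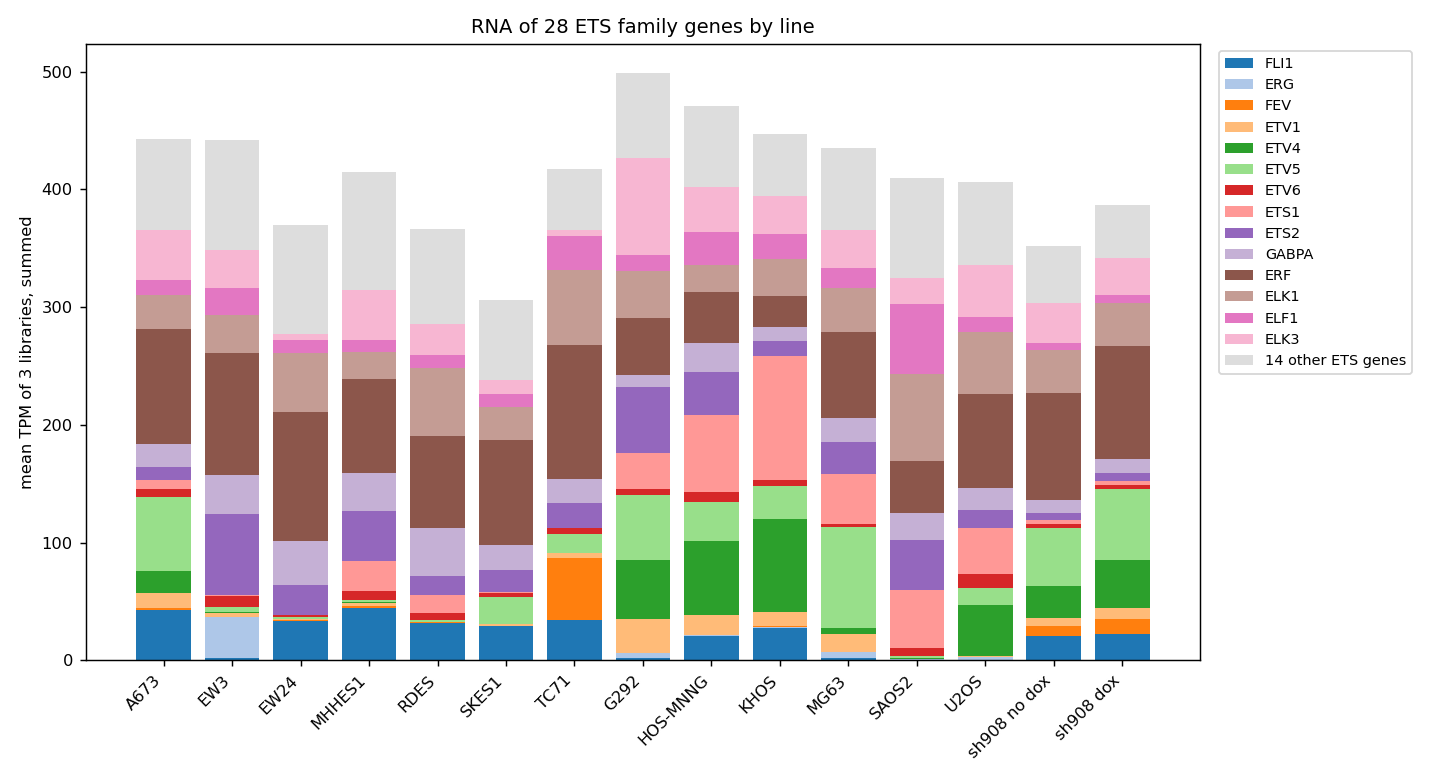
Stacked bars show the TPM of 28 ETS family genes, as means of 3 libraries, for the 13 lines and the sh908 groups, with the 10 members at the base. The whole bars run from 306 TPM in SKES1 to 499 TPM in G292, and the ETS1 and ETV4 blocks are the tallest 2 in KHOS and HOS-MNNG.

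For each member the genes most alike in pattern, at most 3, were taken by Pearson's r of log2(TPM + 1) over the 13 line means, among 16537 other genes at 1 TPM or more. FLI1 was followed by NUP37 (r = 0.957), ISYNA1 (0.908) and ATP5F1B (0.904). ERG was followed by GAS7 (0.891), CELF2 (0.886) and NUP93 (0.886), and FEV by RCC2-AS1 (0.933), SLC34A2 (0.929) and PIWIL2 (0.911). ETV1 led to SPRY4 (0.915), HOXB4 (0.862) and PLA2G4A (0.859). ETV4 led to ADAMTS12 (0.966), C13orf46 (0.934) and CATSPER1 (0.931), and ETV5 to LOC105372480 (0.888), ETV1 (0.847) and IER2 (0.834). ETS1 was most like MT1E (0.959), TGFB1I1 (0.919) and HOXA9 (0.919), ETS2 like CAPS (0.816) and CNOT6L (0.815), ETV6 like VTI1A (0.887), SPTLC2 (0.881) and OCIAD2 (0.875), and GABPA like PIGX (0.919), MANEA (0.907) and H3P6 (0.903). All these values are the highest of many over 13 points and carry no test.

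In the sh908 cells KCNN1, the potassium channel gene named in the title of the series, served as the check of the labels. The uninduced libraries had 37.8, 35.3 and 17.99 TPM and the induced ones 10.2, 13.7 and 7.75 TPM, so that the groups did not overlap. Libraries with the same replicate number deviated together from their group means, so the numbers were used as pairs beside the unpaired fit. These deviations set replicate 3 apart from replicates 1 and 2 but did not tell replicate 1 from replicate 2.

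No member was called with doxycycline in the unpaired fit. There 0 of 14252 genes (0%) were called by edgeR, 94 had an unadjusted p under 0.05 and DESeq2 called 2 (0.014%). KCNN1, whose groups did not overlap, was not called by edgeR either, so the lack of a call cannot show that a member was unchanged. Of the 9 members tested none had an unadjusted p under 0.05, and DESeq2 called none. ERG was too low to test. With the replicate block 73 genes were called, 0.512% of those tested and 0.253% in the direction of higher, and ETV4 was among these. ETV4 had 36.5, 33.9 and 9.61 TPM in the uninduced and 47.2, 57.4 and 16.8 TPM in the induced libraries. It was higher with doxycycline in each of the 3 pairs while the groups overlapped, because replicate 3 was low in both. Its log2 fold change was 0.66 (SE 0.11, adjusted p = 0.0378) with the block and 0.61 (SE 0.78, adjusted p = 1.0) without it. The paired call was lost without pair 1 (adjusted p = 0.138) and without pair 2 (adjusted p = 0.289), and it was kept without pair 3 (adjusted p = 0.0476).

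ETV1 and FEV were also higher with doxycycline in 3 of 3 pairs but were not called. ETV1 had 7.50, 6.54 and 6.33 TPM before and 9.20, 8.62 and 9.77 TPM after induction, 2 groups that did not overlap, beside 2.19% of all genes that were higher without overlap. Its paired log2 fold change was 0.47 (SE 0.11, adjusted p = 0.0935). FEV had 10.9, 14.7 and 0.950 TPM uninduced and 18.5, 19.4 and 1.65 TPM induced, a paired log2 fold change of 0.63 (SE 0.18, adjusted p = 0.160). ETV5 had 47.1, 45.9 and 55.99 TPM uninduced and 43.9, 50.4 and 87.5 TPM induced, which differed in direction between pairs. FLI1 had 23.7, 24.8 and 12.6 TPM uninduced and 24.4, 24.7 and 17.3 TPM induced, a paired log2 fold change of 0.19 (SE 0.12, adjusted p = 0.517). NM_001271012.2 held 93.6% or more of FLI1 TPM in all 6 libraries. ETS2 and GABPA were higher in 3 of 3 pairs by little, from 100.3% to 124.2% of the uninduced value. ETV6 fell in pair 2 only, from 3.08 to 1.49 TPM. GABPA, ETS1, ETS2 and ETV6 had paired log2 fold changes of 0.14, 0.08, 0.25 and -0.15, with adjusted p of 0.424 or more. Of the 16 ERK-responsive genes FOSL1 alone was called with the block, higher by 1.24 (SE 0.12, adjusted p = 0.00137), beside 0.253% of all genes called higher, and 0 were called without it.

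**Figure D5:**
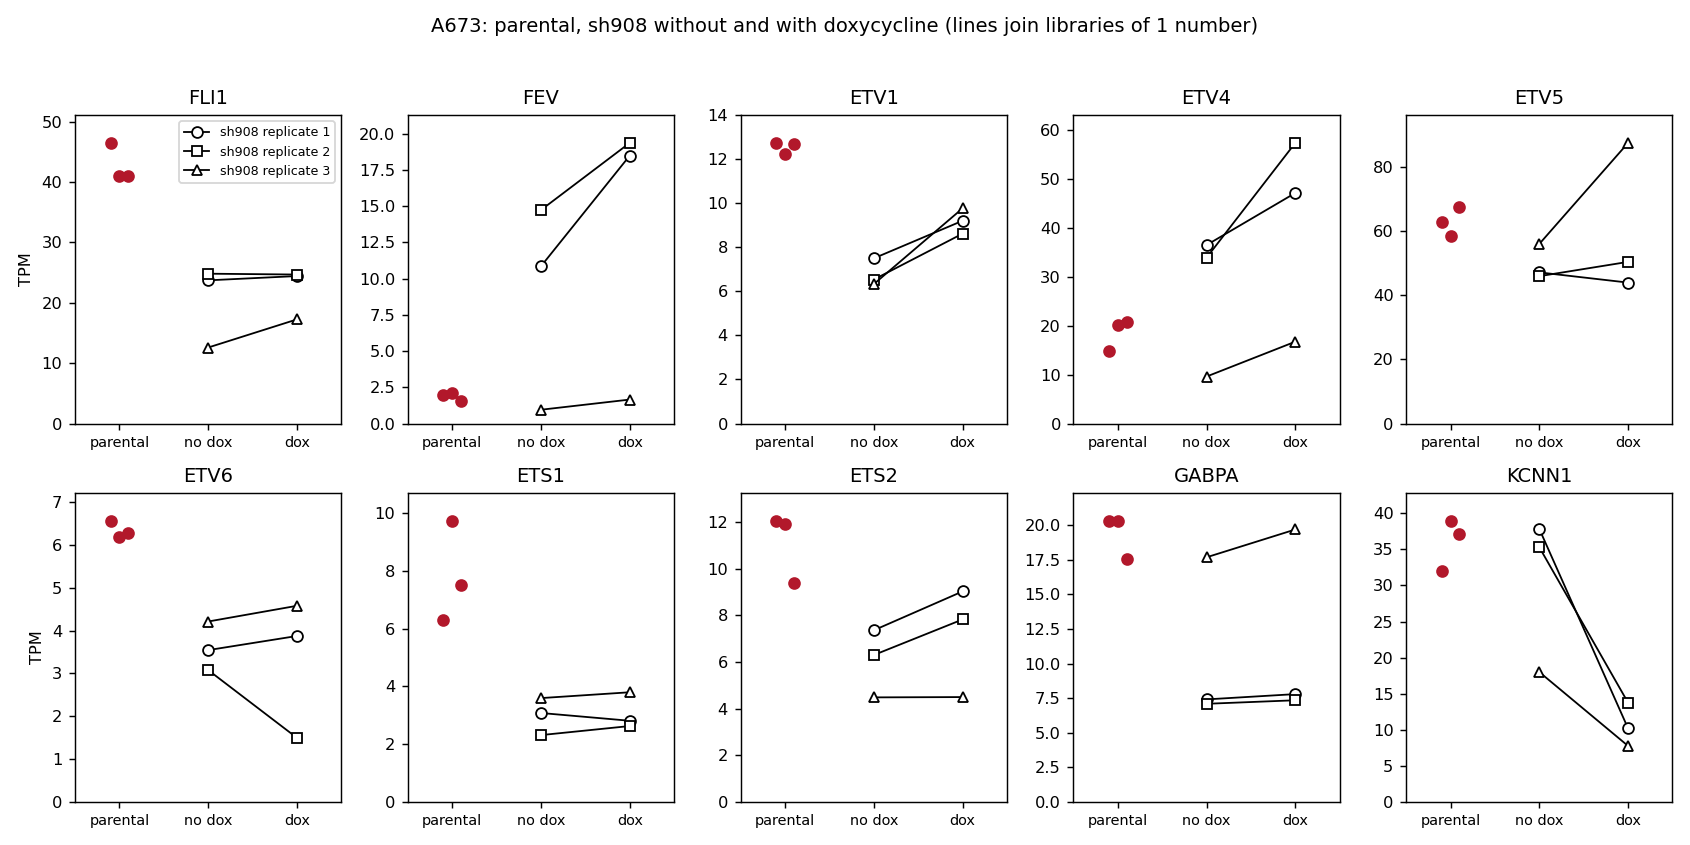
Each panel gives the TPM of 9 members and KCNN1 in parental A673 (red points) and in sh908 cells without and with doxycycline, where lines join libraries of the same replicate number. ETV4 rises along all 3 lines from 9.61 to 36.5 TPM in the uninduced to 16.8 to 57.4 TPM in the induced libraries, and replicate 3 stands apart from replicates 1 and 2 for FEV, ETV4 and GABPA.

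Against parental A673 the uninduced sh908 cells had lower ETS1. The parental libraries had 6.32, 9.73 and 7.53 TPM and the uninduced sh908 libraries 3.08, 2.31 and 3.60 TPM, without overlap, as were 38.8% of all genes in this direction. The log2 fold change was -0.96 (SE 0.23, adjusted p = 0.0388), and ETS1 was the 1 member called of 9 tested, beside 15.1% of 15778 genes called and 6.42% called lower. The count over all genes, 2388, came down to 4, 2 and 8 without parental replicates 1, 2 and 3, to 1377 and 266 without sh908 replicates 1 and 2, and went up to 10202 without sh908 replicate 3. The ETS1 call was lost when any of the 6 libraries other than sh908 replicate 3 was left out, with adjusted p from 0.0555 to 0.158. The labels do not say whether the sh908 and parental libraries were prepared together, so the construct and the preparation cannot be told apart.

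The other members were not called by edgeR in this fit of 6 libraries, and ERG was too low to test. Without sh908 replicate 3 edgeR called 6 of the 9 (ETS1, ETV4, ETV5, ETV6, FEV and GABPA), beside 62.3% of all genes. With all 45 libraries in the fit it called ETS1, ETV4 and FEV, beside 32% of all genes. With ETS1, 6 of the 9 tested were lower in TPM without overlap, the others being FLI1, ETV1, ETV5, ETV6 and ETS2, beside 38.8% of all genes. FLI1 was at 12.6 to 24.8 TPM against 40.96 to 46.5 TPM in parental A673, and on counts scaled by TMM its log2 fold change was -0.52 (SE 0.39, adjusted p = 0.387). ETV6 was at 3.08 to 4.21 TPM against 6.19 to 6.55 TPM, with -0.41 (SE 0.16, adjusted p = 0.127) and an unadjusted p of 0.0376. ETV1, ETV5 and ETS2 had log2 fold changes of -0.40, 0.12 and -0.36 on counts, with adjusted p of 0.243 or more, so that ETV5 was lower in TPM and not in counts. FEV, GABPA and ETV4 differed between the sh908 libraries. FEV was at 10.9 and 14.7 TPM in replicates 1 and 2 and at 0.950 TPM in replicate 3, against 1.56 to 2.14 TPM in parental cells (log2 fold change 2.88, SE 0.97, adjusted p = 0.0914). DESeq2 called FEV (adjusted p = 0.007) and ETS1 (adjusted p = 0.00304), beside 26.4% of genes. GABPA was at 7.41 and 7.09 TPM in replicates 1 and 2 and at 17.7 TPM in replicate 3, beside 17.5 to 20.3 TPM in parental cells (log2 fold change -0.51, SE 0.21, adjusted p = 0.140). Replicates 1 and 2 are the GC-shifted libraries, with 12066 and 12019 genes at 1 TPM or more against 14101 in replicate 3 and 13560 to 13763 in parental A673, and the part of this in the FEV, GABPA and ETV4 values was not tested. ETV4, at 60.8% GC, had 1.15 (SE 0.59, adjusted p = 0.220), and without sh908 replicate 3 1.62 (adjusted p = 3.9e-07). Among the other ETS genes ELK1 rose by 0.74 (SE 0.12, adjusted p = 0.0161), and ETV3 fell by 1.19 (SE 0.21, adjusted p = 0.0188) on the log2 scale, of 10 tested, beside 8.71% of all genes called higher and 6.42% lower.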

How the data were processed

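RNA of human cell lines (NucleoSpin RNA Plus) was sequenced from stranded poly(A) libraries, per the labels' protocols. The submitters' processing notes name fastp 0.19.5, kallisto 0.46.2, hg38 and GRCh38.p14 without their roles; the strand setting is not given in the sources used here. The deposited tables hold estimated counts (expected counts) and TPM for 177816 RefSeq transcripts per library, per the file headers. The other deposited values, length and effective length in bases, were not used in a test. Transcripts were joined to genes by accession through the RefSeq annotation (169966 matched, 95.6%) and summed by gene.

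Counts were rounded, filtered with filterByExpr, scaled by TMM and tested with edgeR 4.0.16 (robust quasi-likelihood, Benjamini-Hochberg adjusted p under 0.05), with DESeq2 1.42.0 as an alternative, under R 4.3.3. The tumour types were compared on counts summed over the 3 libraries of a line. The sh908 comparisons were 3 against 3 libraries. The replicate numbers of the sh908 libraries were used as pairs, since same-numbered libraries deviated together (r = 0.683, 0.582 and 0.881), a hint from the data; unlike numbers 1 and 2 gave 0.517 and 0.608, and against parental A673 they did not (0.045, 0.087 and 0.25). Transcript shares are of summed TPM, with p from SciPy 1.17.1. Exon positions and sequences came from GENCODE version 29 through its RefSeq links, whose record versions can differ from those in the tables. GC content was that of the longest GENCODE transcript of a gene, for 94.4% of 11511 genes at a mean of 5 TPM or more. All members tested were named in every comparison, of the gene lists at most 6 called genes each way, and at most 3 most alike genes of each member. Some items are not reported here. The members and lists were chosen with earlier results of these data known.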

Additional observations from a re-analysis of the deposited data

Results flagged for a closer look

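Within the Ewing or osteosarcoma lines, 5 of 22 groups of line values held a line whose gap to its neighbour was larger than Dixon's limit for the group's range, and chance gives about 1 in 20. By the same rule 8.93% of all genes at 1 TPM or more held such a line among the Ewing lines and 10.7% among the osteosarcoma lines. All 5 lay among the 7 Ewing lines, and 3 of them are the same line, EW3, so they are not independent. FLI1 in EW3 was far below the other Ewing lines at 2.08 TPM, and ERG in EW3 was far above them at 34.8 TPM. The share of NM_001271012.2 in FLI1 was far below the others in EW3 at 0.84%. FEV stood out in TC71 at a mean of 53.1 TPM, which includes the GC-shifted library with 98.6 TPM. ETV4 stood out in A673 at 18.6 TPM.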

How the results depend on the processing

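Between the tumour types 3159 genes were called, 5399 with DESeq2 and 16743 when libraries served as replicates of fixed line means with a replicate block. Leaving out 1 line or 1 replicate number gave between 2296 and 3177 genes. ERG had a log2 fold change of -4.21 with DESeq2 at its default settings and -6.13 with fixed line means and the replicate block, against 1.1. It lay between -9.07 (without EW3) and 1.68 (without MG63) when 1 line was left out. Without TC71 replicate 3, an alternative chosen after seeing the data, 3176 genes were called and no member. With doxycycline 0 genes were called, 2 with DESeq2, 73 with the replicate block, 10, 7 and 167 when pair 1, 2 or 3 was left out of the block fit, and 12 with all 45 libraries in the fit. Leaving out 1 library or pair moved FLI1 between -0.24 and 0.39, ETV6 between -0.4 and 0.22 for a library and to 0.24 for pair 2, ETS2 between -0.03 and 0.63 and GABPA between -0.18 and 0.41, with the sign turned in 3, 3, 2 and 1 of these fits and no call. Against parental A673 2388 genes were called, 4169 with DESeq2, 319 with the replicate block and 7558 with all 45 libraries, and leaving out 1 library gave between 2 and 10202 and leaving out 1 number from the block fit gave 205, 329 and 8250. There ETS1, ELK1 and ETV3 were not called with the replicate block (adjusted p = 0.0964, 0.0627 and 0.0516), whose numbers do not pair these samples. The share of NM_001271012.2, a transcript chosen from these same lines, kept its direction and its side of the threshold under all alternatives run. The causes of these changes were not tested. Depth limits the transcript shares of lines with few FLI1 or ERG counts.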
